A study of Rattus norvegicus with 32 samples.

Results

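The transcriptome of the subventricular zone (SVZ) of saline-injected rats was compared directly with that of Ammon's horn of the hippocampus (CA), using the 4 samples labelled SVZ Sal and the 4 labelled CA Sal, 8 of the 32 RNA-seq samples of the series. All were from adult male Sprague-Dawley rats that received 4 intraperitoneal injections of saline (1 mL/kg), spaced 2 h apart, and were killed on the following day. The remaining samples are the nucleus accumbens (NAc) and dentate gyrus (DG) of the same design and the 4 regions of rats given methamphetamine (METH). SVZ tissue was taken with a 1 mm punch from frozen anterior brain slices, while the CA was dissected from the posterior part of the brain, so an SVZ sample holds whatever lies within a punch at the wall of the lateral ventricle. The labels do not say which libraries came from which animal, so p-values measure the spread between these samples. The question was which genes separate a germinal periventricular tissue from a cortical field of projection neurons in rats given no drug.

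The SVZ lines the lateral ventricle between the striatum and the septum. It holds neural stem cells of astrocytic character, transit-amplifying cells and neuroblasts that migrate to the olfactory bulb, and it is covered by ependymal cells with motile cilia. The CA holds densely packed glutamatergic pyramidal neurons, which derive from the dorsal telencephalon (pallium), together with scattered GABAergic interneurons. The striatum next to the SVZ consists mostly of GABAergic medium spiny neurons, which carry dopamine receptors and derive from the ventral telencephalon.

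Among the genes that separated the regions furthest, 4 are shown here by the 300 bases around their start of transcription (RefSeq, GRCr8, from 250 bases before to 50 bases after the start), because they stand for the classes described below. They are Slc30a3 (plus strand, chr6:30997164-30997463) and Nr4a2 (minus strand, chr3:62104838-62105137), which were called higher in the CA, and Isl1 (minus strand, chr2:49823393-49823692) and Rarb (plus strand, chr15:11336142-11336441), which were called higher in the SVZ. Capitals mark the E-box CAGATG, or CATCTG where it lies on the other strand, a motif bound by neuronal basic helix-loop-helix factors such as Neurod1. The motif was present in 16.6% of the 33469 windows of the RefSeq table. It was found 74 bases before the start in Nr4a2 and 193 bases before the start in Rarb, and in neither of the others. Since 155 of the 217 called genes (71.4%, under 80%) had a window, no share was compared between gene groups.
Slc30a3: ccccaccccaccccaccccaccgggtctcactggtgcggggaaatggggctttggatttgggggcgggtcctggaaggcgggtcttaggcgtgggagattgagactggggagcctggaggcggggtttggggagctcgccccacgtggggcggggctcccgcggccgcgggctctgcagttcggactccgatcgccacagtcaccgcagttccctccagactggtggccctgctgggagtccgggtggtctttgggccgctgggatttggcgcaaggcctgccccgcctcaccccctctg
Nr4a2: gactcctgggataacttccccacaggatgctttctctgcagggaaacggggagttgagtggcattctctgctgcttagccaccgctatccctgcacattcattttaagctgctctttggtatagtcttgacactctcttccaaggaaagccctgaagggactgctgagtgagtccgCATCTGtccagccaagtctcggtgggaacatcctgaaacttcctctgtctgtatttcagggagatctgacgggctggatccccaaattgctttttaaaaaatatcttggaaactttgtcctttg
Isl1: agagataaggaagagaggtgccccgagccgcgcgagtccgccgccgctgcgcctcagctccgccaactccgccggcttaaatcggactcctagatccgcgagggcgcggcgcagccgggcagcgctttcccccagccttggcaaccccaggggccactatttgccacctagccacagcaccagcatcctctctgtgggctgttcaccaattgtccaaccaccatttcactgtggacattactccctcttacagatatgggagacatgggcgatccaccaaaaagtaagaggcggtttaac
Rarb: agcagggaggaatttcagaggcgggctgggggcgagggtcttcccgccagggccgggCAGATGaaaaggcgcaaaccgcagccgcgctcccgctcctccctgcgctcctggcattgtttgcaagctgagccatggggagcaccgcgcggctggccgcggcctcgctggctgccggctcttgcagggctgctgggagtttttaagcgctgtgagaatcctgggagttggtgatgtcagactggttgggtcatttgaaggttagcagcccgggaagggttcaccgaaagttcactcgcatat

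The libraries held 17269245 to 21085891 counted reads in the SVZ and 12888040 to 19350101 in the CA. In the file headers, the names of all SVZ libraries begin with 1 shared prefix that no CA library carries. The names of CA Sal 1 and 2 call these libraries merged and do not name the sources. The labels do not say what the prefix marks, so any batch it stands for and the region cannot be told apart. Levels are given as CPM, a gene's reads relative to the total reads of its library after upper-quartile scaling. On this scale 1 read was worth 0.0469 to 0.0813 CPM depending on the library. In whole-tissue RNA, fewer cells of a type and less RNA per cell cannot be told apart.

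The library labelled SVZ Sal 1 stood apart from the other SVZ libraries. Its counts differed from theirs by a chi-square of 169.3 to 178.3 per gene, while the other SVZ pairs differed by 32.7 to 54.2 and the CA pairs by 16.4 to 53.1. The summed level of 26 medium spiny neuron genes was 1569, 9137, 14850 and 10322 CPM in SVZ Sal 1 to 4, against 1138, 1584, 1415 and 1568 CPM in CA Sal 1 to 4. SVZ Sal 1 thus lay beside the CA. The 19 thalamic neuron genes ran the other way, with 6723, 765, 799.7 and 1027 CPM in the SVZ libraries and 1097, 750.5, 930.1 and 879.9 CPM in the CA libraries, so that SVZ Sal 1 had the highest sum of the 8 libraries. Prkcd, a protein kinase C that marks relay nuclei of the thalamus, was 931, 32.7, 95.6 and 121 CPM in SVZ Sal 1 to 4. Scaled over all 16 saline samples, it was 5.96 to 16.4 CPM in the CA libraries, so every SVZ library lay above them. Myelin genes were also highest in SVZ Sal 1, at 25316, 5241, 12067 and 9876 CPM in the SVZ libraries. SVZ Sal 1 and 2 are both additional libraries by their names, and SVZ Sal 2 had high striatal and low thalamic sums. The column of SVZ Sal 1 in the series count matrix carries a further number in its name, and the labels do not say what that number means. Counts and medians without SVZ Sal 1 are given beside the lists below that move with it.

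The CA libraries were not uniform either. Choroid plexus genes, led by Ttr (transthyretin), summed to 64.9, 2693, 52.1 and 34.1 CPM in CA Sal 1 to 4 and to 497, 92.1, 188 and 100.03 CPM in SVZ Sal 1 to 4. CA Sal 2 held the highest sum. Prox1, the transcription factor of dentate granule neurons, was 249.7, 33, 294 and 82.7 CPM in CA Sal 1 to 4 and 152, 20.1, 25.3 and 62.3 CPM in SVZ Sal 1 to 4. CA Sal 1 and 3 were high for it, and CA Sal 2 was below SVZ Sal 1 and 4. The share of reads from mitochondrial genes was 10.98 to 18.8% in the SVZ libraries and 10.4 to 18.2% in the CA libraries, with overlapping ranges.

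**Figure D1:**
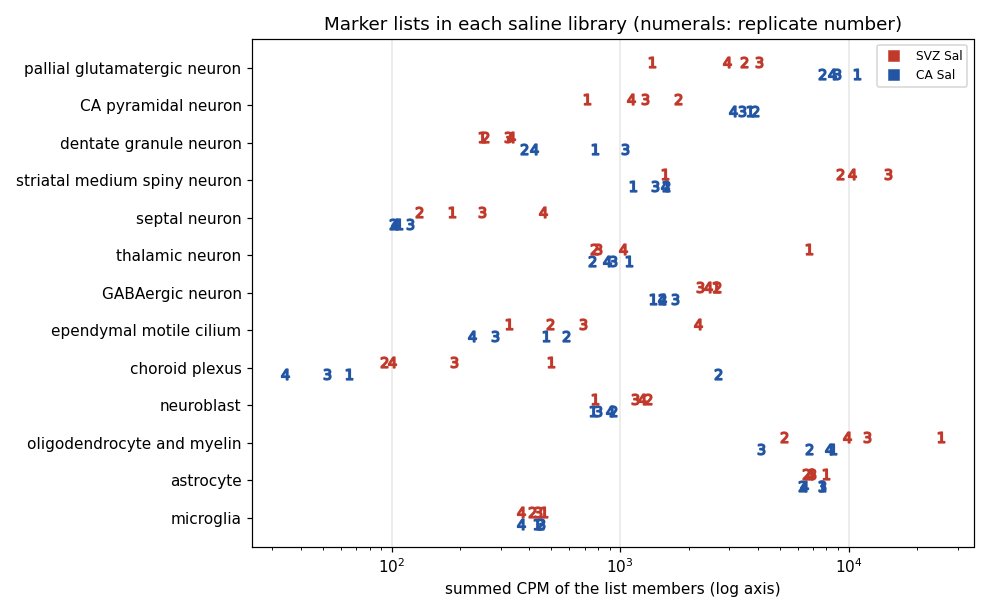
Summed CPM of the members of 13 marker lists (log axis) in each saline library; numerals give the replicate number, red for SVZ Sal and blue for CA Sal. SVZ Sal 1 lies with the CA libraries for medium spiny neuron genes and is highest for thalamic and myelin genes, and CA Sal 2 is highest for choroid plexus genes.

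Of 15176 genes tested, 67 were called higher (0.441%) and 150 lower (0.988%) in the SVZ, together 217 (1.43%), at an edgeR quasi-likelihood false discovery rate (FDR) below 0.01 and a fold change above 2. The 4 SVZ values did not overlap the 4 CA values for any of the 217 called genes, and over all genes tested 11.7% lay wholly above and 9.79% wholly below the CA. Called genes had a median log2 fold change (SVZ minus CA) of 1.73 where higher and -1.76 where lower, beside 0.10 over all genes tested (0.04 with TMM scaling). More than 8-fold separation was seen for 16 genes called higher and 36 called lower. At an unadjusted p below 0.05, 2787 genes were higher (18.4%) and 1834 lower (12.1%). Without SVZ Sal 1, 391 genes were called higher (2.55%) and 382 lower (2.49%), together 773 (5.03%), and 212 of the 217 genes were among them in the same direction. Leaving out any other library lowered the number of called genes, to 120, 2 and 13 without SVZ Sal 2, 3 and 4, and to 20, 32, 5 and 67 without CA Sal 1, 2, 3 and 4. With the RNA integrity number as a covariate, 76 genes were called (24 higher, 52 lower). The calls below rest on the full set of 8 samples without that covariate. The shares over all genes given here are the background for each list count below.

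**Figure D2:**
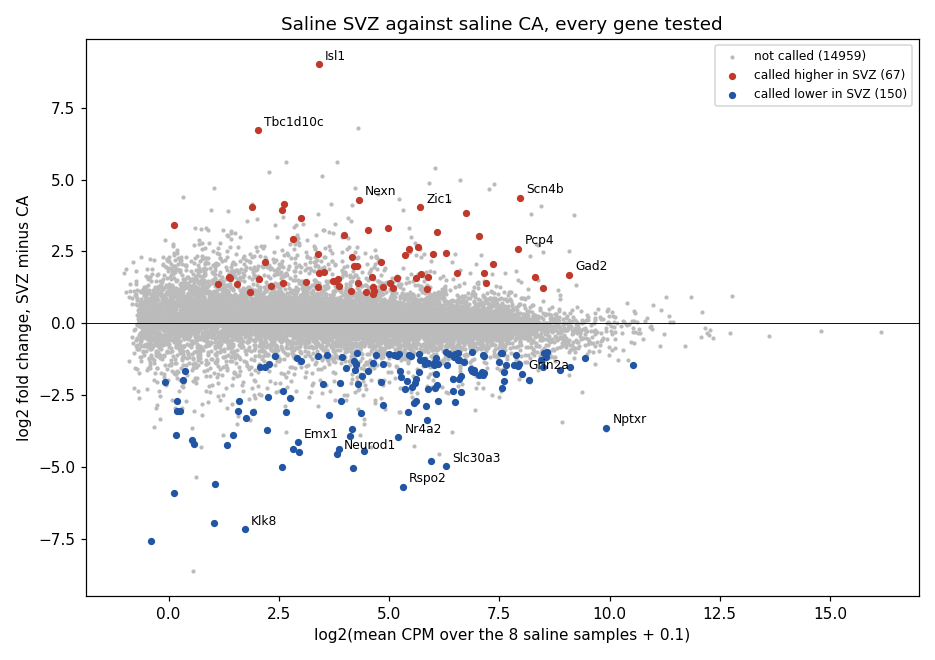
Log2 fold change (SVZ minus CA) of each of the 15176 genes tested against the log2 of its mean CPM over the 8 saline samples plus 0.1; red points were called higher in the SVZ (67), blue points lower (150) and grey points were not called. Isl1 has the highest called fold change and Klk8 is among the lowest.

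Emx1, Neurod1, Bhlhe22 and Zbtb18, transcription factors of pallial neurons, were lower in the SVZ than in the CA. Emx1, a homeobox factor of the dorsal telencephalon, was 13.3, 10.3, 12.6 and 21 CPM in CA Sal 1 to 4 and 0.0469, 1.37, 1.01 and 0.802 CPM in SVZ Sal 1 to 4 (log2 fold change -4.14 ± 0.63 (SE), adjusted p = 0.00849). Neurod1, a basic helix-loop-helix factor of differentiating neurons at chr3:66414308-66417741 (Rnor_6.0), was 33.7, 23.1, 33.1 and 18.4 CPM in the CA and 0.562, 2.36, 1.48 and 0.172 CPM in the SVZ. No value of either gene overlapped between regions, and Neurod1 was lower in the SVZ by a log2 fold change of -4.54 ± 0.61 (SE; adjusted p = 0.00628). Bhlhe22, of the same protein class, was 118 ± 46.6 CPM in the CA against 4.28 ± 3.54 CPM in the SVZ (SD, n = 4; log2 fold change -4.78 ± 0.72 (SE), adjusted p = 0.00823). The repressor Zbtb18 averaged 309.8 ± 93.9 CPM in the CA against 76.8 ± 23.7 CPM in the SVZ (SD, n = 4), with a log2 fold change of -2.01 ± 0.28 (SE) and adjusted p = 0.00657. Neurog2, a proneural factor chosen after its values were seen, had no read in any SVZ library and 1.86, 0.685, 1.38 and 1.38 CPM in the CA libraries, a level at least 8.89-fold higher than 3 reads per SVZ library.

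The wider list of pallial glutamatergic neurons had a median below 0. Of 23 members tested, 4 were called lower in the SVZ and 0 higher (0 at an unadjusted p below 0.05 and 0 by DESeq2), 17 lay wholly below the CA values, and the median log2 fold change was -2.01. Without SVZ Sal 1, 8 were called lower and the median was -1.93. Of all genes, 9.79% lay wholly below the CA and 0.988% were called lower, or 2.49% without SVZ Sal 1. Slc17a7, the vesicular glutamate transporter of cortical and hippocampal terminals, was 2150, 1676, 1859 and 1548 CPM in CA Sal 1 to 4 and 250.4, 202, 85.5 and 8.66 CPM in SVZ Sal 1 to 4. Its groups did not overlap, but the SVZ values spread widely and its log2 fold change of -3.73 ± 0.83 (SE) missed the threshold (adjusted p = 0.0292; 0.0136 without SVZ Sal 1). The differentiation factors Neurod2 and Tbr1 had log2 fold changes of -4.28 ± 0.97 and -3.08 ± 0.88 (SE) with adjusted p = 0.0304 and 0.0581. Rtn4rl2, a receptor of the Nogo family, was 44.8, 46.9, 50.9 and 40.8 CPM in the CA and 0.0469, 5.61, 3.21 and 0.229 CPM in the SVZ, without overlap and with adjusted p = 0.027 (0.00535 without SVZ Sal 1).

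Slc30a3, Nptxr and C1ql3, which act at synapses, were higher in the CA. Slc30a3, which loads zinc into glutamatergic vesicles (chr6:26642783-26650105), was 151, 118, 205 and 134 CPM in CA Sal 1 to 4 and 5.86, 6.5, 4.5 and 2.41 CPM in SVZ Sal 1 to 4 (log2 fold change -4.97 ± 0.34 (SE), adjusted p = 0.00136). The lowest CA library was thus above every SVZ library. Nptxr, the neuronal pentraxin receptor that acts at excitatory synapses, was 2061, 2171, 1602 and 1348 CPM in the CA and 80.3, 193, 199 and 108 CPM in the SVZ (log2 fold change -3.63 ± 0.34 (SE), adjusted p = 0.00256). C1ql3, a secreted synaptic organiser, averaged 106 ± 38.1 CPM in the CA against 10.1 ± 6.74 CPM in the SVZ (SD, n = 4; log2 fold change -3.38 ± 0.52 (SE), adjusted p = 0.00901). The presynaptic genes Syn1 and Bsn, chosen after their values were seen, had smaller log2 fold changes of -1.51 ± 0.16 and -1.45 ± 0.13 (SE) on high levels, with CA means of 810.3 and 2161 CPM (adjusted p = 0.00355 and 0.00237).

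Mas1, Htr5b and Slc9a4, named for the size of their differences, were also higher in the CA. Mas1, the Mas receptor of the renin-angiotensin system, was 66.3, 22.9, 34.1 and 17.9 CPM in CA Sal 1 to 4 and 0.141, 2.31, 1.01 and 0.86 CPM in SVZ Sal 1 to 4 (log2 fold change -5.02 ± 0.72 (SE), adjusted p = 0.00718). Htr5b, a serotonin receptor, was 10.7, 4.8, 19.7 and 9.83 CPM in the CA and 0, 0.424, 0.574 and 0.401 CPM in the SVZ (log2 fold change -4.99 ± 0.73 (SE), adjusted p = 0.00749). Both genes were at or under 2.31 CPM in every SVZ library. Slc9a4, a sodium-proton exchanger, averaged 40.8 ± 12.1 CPM in the CA against 1.86 ± 1.27 CPM in the SVZ (SD, n = 4; log2 fold change -4.45 ± 0.58 (SE), adjusted p = 0.00541). Of genes chosen after their values were seen, the nicotinic and muscarinic acetylcholine receptors Chrna7 and Chrm3 fell by 2.06 and 2.00 on the log2 scale and the potassium channel Kcnj6 by 2.14 (adjusted p = 0.00767, 0.00237 and 0.00823). The chemokine receptor Cxcr1 had 2 reads over the 4 SVZ libraries and 245 over the 4 CA libraries, a ratio of 166 with a 95% counting interval of 45.4 to 1377.

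Of genes for secreted proteins, Rspo2, Klk8 and Adcyap1 were higher in the CA, while Spp1, described below, was higher in the SVZ. Rspo2, an R-spondin that potentiates Wnt signalling, was 138, 57.7, 72.4 and 43.3 CPM in CA Sal 1 to 4 and 0.328, 3.49, 1.58 and 0.516 CPM in SVZ Sal 1 to 4 (log2 fold change -5.70 ± 0.73 (SE), adjusted p = 0.00541). Klk8 (neuropsin), an extracellular serine protease, was 10.3, 1.9, 9.15 and 4.06 CPM in the CA and 0.0469, 0, 0 and 0.115 CPM in the SVZ. With 3 reads over the SVZ libraries and 410 over the CA libraries, its ratio was 185 (95% counting interval 62.9 to 901; adjusted p = 0.00512). Adcyap1, the precursor of the neuropeptide PACAP, was 7.91, 7.54, 11.7 and 26 CPM in the CA and 0.75, 0.895, 0.574 and 0.287 CPM in the SVZ, and CA Sal 4 was the highest (log2 fold change -4.37 ± 0.53 (SE), adjusted p = 0.0048). The neurotrophin Bdnf, the bone morphogenetic protein inhibitor Chrd and the Wnt inhibitor Frzb, chosen after their values were seen, averaged 32.5, 32.7 and 22.3 CPM in the CA and 2.15, 2.56 and 2.42 CPM in the SVZ (adjusted p = 0.00405, 0.00237 and 0.00742). Mei1, known from meiosis, was 27.5 ± 11.9 CPM in the CA against 1.32 ± 0.875 CPM in the SVZ (SD, n = 4; log2 fold change -4.36 ± 0.54 (SE), adjusted p = 0.00523). The phosphatase Dusp9, chosen after its values were seen, was 3.91 ± 1.83 CPM in the CA against 0.0712 ± 0.0823 CPM in the SVZ (SD, n = 4; log2 fold change -5.61 ± 0.72 (SE), adjusted p = 0.00541).

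Markers of the hippocampal fields themselves were uneven. Of 15 CA pyramidal genes tested, 1 (Nptxr) was called lower in the SVZ and 0 higher (2 at an unadjusted p below 0.05 and 0 by DESeq2). The list's median log2 fold change was -0.87. Without SVZ Sal 1 the median was -0.52 and 3 were called lower. Neurod6 was 234, 98, 103 and 101 CPM in CA Sal 1 to 4 and 0.562, 12.7, 9.52 and 0.229 CPM in SVZ Sal 1 to 4, without overlap (adjusted p = 0.0324). Wfs1 and Pou3f1 mark pyramidal neurons of the CA1 field. Wfs1 was 289, 314, 181 and 289 CPM in the CA and 50.6, 582, 198 and 151 CPM in the SVZ. Pou3f1 was 32, 17.5, 47.4 and 65.7 CPM in the CA and 4.87, 36.7, 68.1 and 36.9 CPM in the SVZ. The groups overlapped for both genes, and SVZ Sal 1 was the lowest library for each. Scaled over all 16 saline samples, Wfs1 averaged 325 ± 169 CPM in the NAc, beside 270 ± 60.4 CPM in the CA (SD, n = 4). Pou3f1 averaged 50.9 ± 27.7 CPM, beside 41 ± 21 CPM. Neither gene was thus particular to the CA among these regions, and the NAc was not tested against the CA. The markers Fibcd1 and Spink8 were not tested, with 1 and 3 reads over the CA libraries.

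Of 8 CA2 genes, 1 (Pcp4) was called higher in the SVZ and 0 lower (0 at an unadjusted p below 0.05 and 0 by DESeq2), with a median of 0.09. Pcp4, a calmodulin-binding peptide also made by striatal neurons, was 699.9, 253, 427 and 297 CPM in SVZ Sal 1 to 4 and 68.8, 55, 86.1 and 67.5 CPM in CA Sal 1 to 4 (log2 fold change 2.60 ± 0.33 (SE), adjusted p = 0.00541). Rgs14 and Amigo2 had log2 fold changes of -1.09 ± 0.66 and -0.22 ± 0.43 (SE; adjusted p = 0.295 and 0.761). Of 13 dentate granule genes, 1 (C1ql3) was called lower and 0 higher (0 at an unadjusted p below 0.05 and 0 by DESeq2), with a median of -0.97. C1ql2, a synaptic protein of granule cell axons, was 80.2, 7.08, 98.3 and 26.5 CPM in the CA and 3.7, 4.71, 5.7 and 12.7 CPM in the SVZ, in the same order across the CA libraries as Prox1 (adjusted p = 0.0456). Desmoplakin (Dsp) and Prox1 had log2 fold changes of -1.39 ± 0.49 and -1.34 ± 0.82 (SE) with adjusted p = 0.103 and 0.293.

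**Figure D3:**
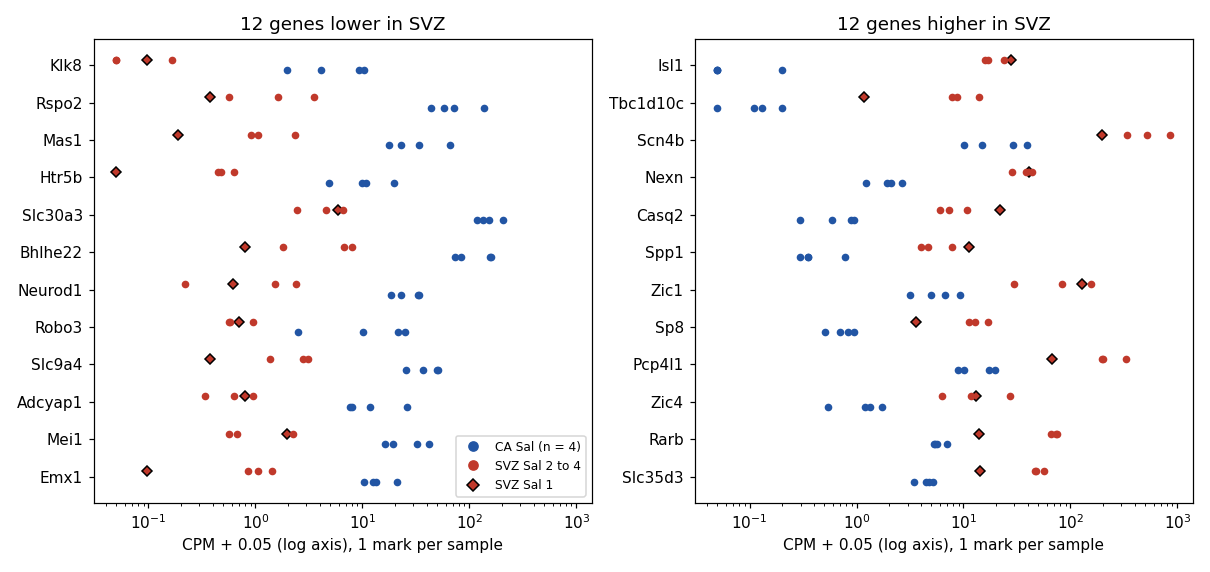
CPM plus 0.05 (log axis) of the 12 named genes with the greatest called differences in each direction, 1 mark per sample; blue circles are CA Sal (n = 4), red circles SVZ Sal 2 to 4 and the outlined diamond SVZ Sal 1. Genes were eligible only where the regions did not overlap. SVZ Sal 1 is the lowest SVZ library for Rarb and Tbc1d10c but not for Isl1.

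Genes of striatal medium spiny neurons had the highest median of the 26 gene lists. Of 26 members tested, 4 were called higher in the SVZ and 0 lower (0 at an unadjusted p below 0.05 and 0 by DESeq2), 24 were higher at an unadjusted p below 0.05, and the median log2 fold change was 3.17. Without SVZ Sal 1, 22 of 26 were called higher and the median was 3.45. Of all genes, 18.4% were higher at that unadjusted p limit. The share called higher was 0.441% of all genes, or 2.55% without SVZ Sal 1. Isl1, a LIM-homeodomain factor of developing striatal neurons (chr2:48487736-48501436, Rnor_6.0), was 27.7, 23.8, 15.8 and 17.1 CPM in SVZ Sal 1 to 4 and 0, 0.152, 0 and 0 CPM in CA Sal 1 to 4. It had 1724 reads in the SVZ and 2 in the CA, a ratio of 637 (95% counting interval 176 to 5263; adjusted p = 0.00136), and SVZ Sal 1 was the highest library.

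Scn4b, Gnal and Rarb were also higher in the SVZ and were lowest there in SVZ Sal 1. Scn4b, a sodium channel beta subunit, was 196, 335, 859 and 519 CPM in SVZ Sal 1 to 4 and 29, 14.8, 10.1 and 39.2 CPM in CA Sal 1 to 4 (log2 fold change 4.36 ± 0.61 (SE), adjusted p = 0.00663). Gnal, the G protein alpha subunit that couples dopamine and adenosine receptors to adenylyl cyclase, was 109, 282, 292 and 257 CPM in the SVZ and 30.7, 34.6, 34.9 and 14.7 CPM in the CA (log2 fold change 3.03 ± 0.39 (SE), adjusted p = 0.00541). Rarb, a retinoic acid receptor, was 14, 73.9, 74.6 and 66.3 CPM in the SVZ and 5.25, 5.63, 5.36 and 6.91 CPM in the CA (log2 fold change 3.31 ± 0.49 (SE), adjusted p = 0.00767). All 3 genes kept every SVZ library above every CA library. Dopamine receptor genes showed the wider spread: Drd1 was 21.1, 210.4, 223 and 172 CPM in the SVZ and 3.78, 14.8, 7.04 and 7.64 CPM in the CA (adjusted p = 0.0138, or 0.00054 without SVZ Sal 1). Drd2 was 6.28, 112, 188 and 159 CPM in the SVZ and 1.64, 8.37, 2.41 and 3.41 CPM in the CA (adjusted p = 0.0222, or 0.000673 without SVZ Sal 1), and there SVZ Sal 1 overlapped the CA.

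Adora2a, the adenosine receptor of these neurons, was 13.5, 195, 342 and 211 CPM in SVZ Sal 1 to 4 and 1.81, 17.4, 3.13 and 1.63 CPM in CA Sal 1 to 4, with CA Sal 2 above SVZ Sal 1. Ppp1r1b (the dopamine- and cAMP-regulated phosphoprotein) and Pde10a, signalling proteins of the same neurons, had log2 fold changes of 3.77 ± 0.76 and 2.75 ± 0.62 (SE). With all 8 samples none of these was called (adjusted p = 0.0218 for Ppp1r1b, 0.031 for Adora2a and 0.0295 for Pde10a). They were called without SVZ Sal 1 (adjusted p = 0.000535, 0.00342 and 0.000122). Tac1, the precursor of substance P, was 3.09, 118, 113 and 64.5 CPM in SVZ Sal 1 to 4 and 2.09, 6.7, 4.15 and 6.74 CPM in CA Sal 1 to 4, so SVZ Sal 1 lay among the CA values (adjusted p = 0.0358, or 0.00064 without SVZ Sal 1). Pcp4l1, related to Pcp4, was 67.8, 330.0, 201 and 198 CPM in the SVZ and 8.75, 17.1, 10.2 and 19.6 CPM in the CA (log2 fold change 3.85 ± 0.50 (SE), adjusted p = 0.00541). Slc35d3, a member of the nucleotide-sugar transporter family, was 14.2, 47.9, 56.8 and 47.1 CPM in the SVZ and 3.39, 5.1, 4.7 and 4.39 CPM in the CA (log2 fold change 3.24 ± 0.41 (SE), adjusted p = 0.00541). The synaptic vesicle gene Sv2c, the phosphodiesterase Pde7b and the purine receptor P2ry1, chosen after their values were seen, were higher in the SVZ by log2 fold changes of 3.18 ± 0.35, 2.40 ± 0.26 and 2.43 ± 0.36 (SE; adjusted p = 0.00389, 0.00358 and 0.00806).

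Zic1 and Zic4, zinc-finger factors of the septum and medial forebrain, were higher in the SVZ. Zic1 was 127, 29.5, 82.6 and 154 CPM in SVZ Sal 1 to 4 and 6.66, 9.29, 4.94 and 3.09 CPM in CA Sal 1 to 4 (log2 fold change 4.03 ± 0.56 (SE), adjusted p = 0.00656). Its neighbour Zic4 (chr8:98745310-98761840, with Zic1 at chr8:98734295-98738446) was 12.9, 6.31, 11.8 and 27.5 CPM in the SVZ and 1.3, 1.67, 1.14 and 0.488 CPM in the CA (log2 fold change 3.65 ± 0.52 (SE), adjusted p = 0.00711). SVZ Sal 4 was highest for both genes. Zic2 had a log2 fold change of 1.70 ± 0.42 (SE) without overlap and was not called (adjusted p = 0.0387). Of 10 septal genes tested, 3 were called higher and 0 lower (0 at an unadjusted p below 0.05 and 0 by DESeq2), with a median of 2.32. The median was 1.43 without SVZ Sal 4, and 2.93 without SVZ Sal 1, when 5 of 11 were called higher. The ion channel Trpc4 was 1.41, 18.9, 42.1 and 68.7 CPM in the SVZ and 59.9, 44.5, 79.5 and 53.9 CPM in the CA, with overlap.

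GABAergic neurons occur in both tissues. Gad1, which makes GABA, was 481, 502, 483 and 540.3 CPM in SVZ Sal 1 to 4 and 188, 205, 245 and 221 CPM in CA Sal 1 to 4. Gad2, the other GABA-making enzyme, was 663, 971, 789 and 878 CPM in the SVZ and 254, 249.7, 256 and 263 CPM in the CA. The values within each region were close, with log2 fold changes of 1.23 ± 0.11 and 1.69 ± 0.13 (SE; adjusted p = 0.00241 and 0.00237), and SVZ Sal 1 was the lowest SVZ library for both genes. Slc32a1, the vesicular GABA transporter, was 219 ± 57.3 CPM in the SVZ against 64.9 ± 7.32 CPM in the CA (SD, n = 4; log2 fold change 1.76 ± 0.21 (SE), adjusted p = 0.00472). Of 19 GABAergic genes tested, these 3 were called higher and 0 lower (2 at an unadjusted p below 0.05 and 2 by DESeq2), with a median of 0.56. When SVZ Sal 1 was left out, 5 were called higher and 2 lower, and the median was 0.08, beside 0.08 over all genes.

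Genes of the germinal niche had smaller medians than the striatal list. Sp8, a zinc-finger factor of neuroblasts bound for the olfactory bulb, was 3.52, 11.3, 12.6 and 16.7 CPM in SVZ Sal 1 to 4 and 0.903, 0.457, 0.783 and 0.65 CPM in CA Sal 1 to 4 (log2 fold change 3.95 ± 0.50 (SE), adjusted p = 0.00536). Pbx3, a homeodomain cofactor, was 28, 49.6, 53.6 and 50.4 CPM in the SVZ and 6.61, 14.3, 9.27 and 11.2 CPM in the CA (log2 fold change 2.14 ± 0.28 (SE), adjusted p = 0.00573). Both had every SVZ library above every CA library, and SVZ Sal 1 was the lowest. Of 19 neuroblast genes tested, these 2 were called higher and 0 lower (0 at an unadjusted p below 0.05 and 0 by DESeq2). The list's median log2 fold change was 0.91. Without SVZ Sal 1, 6 were called higher and the median was 1.14. Dlx1, Dlx5 and Sp9 are also on the GABAergic list, and Meis2 is also on the medium spiny neuron list. The counts and median of the neuroblast list are therefore not particular to neuroblasts. Dcx (doublecortin), the marker of migrating neuroblasts, was 19.2, 90.9, 32.9 and 69.4 CPM in the SVZ and 39.5, 53.3, 52.6 and 47.5 CPM in the CA, with overlap (log2 fold change 0.14 ± 0.43 (SE), adjusted p = 0.849). Dlx2 and Igfbpl1 had log2 fold changes of 1.59 ± 0.45 and 1.93 ± 0.73 (SE; adjusted p = 0.0581 and 0.12), and Dlx2 was called without SVZ Sal 1 (adjusted p = 0.0044).

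Among 32 genes of the stem cell niche, 2 were called higher and 1 lower in the SVZ (median 0.34), and DESeq2 called 3 higher and 1 lower. At an unadjusted p below 0.05, 13 were higher and 2 lower, against 18.4% and 12.1% of all genes. The SVZ values lay wholly above the CA for 10 of them, against 11.7% of all genes, and wholly below for 1, against 9.79%. Tnc (tenascin C), a matrix protein of the niche, was 59.9, 48.9, 36.2 and 45.6 CPM in SVZ Sal 1 to 4 and 21.1, 20.2, 21.9 and 18.4 CPM in CA Sal 1 to 4 (log2 fold change 1.22 ± 0.15 (SE), adjusted p = 0.00541). Id4, an inhibitor of basic helix-loop-helix factors, was 70.0, 85.6, 91.2 and 107 CPM in the SVZ and 28.1, 28.1, 33.9 and 27.2 CPM in the CA (log2 fold change 1.59 ± 0.15 (SE), adjusted p = 0.00237). Hes1, a repressor downstream of Notch, went the other way, at 4.41, 4.34, 4.31 and 5.16 CPM in the SVZ and 13.9, 12.3, 9.99 and 9.1 CPM in the CA (log2 fold change -1.31 ± 0.17 (SE), adjusted p = 0.00541). The classical markers Gfap, Nes and Egfr overlapped between regions, with log2 fold changes of -0.22 ± 0.33, 0.61 ± 0.29 and -0.11 ± 0.27 (SE). The chromatin enzyme Ezh2, chosen after its values were seen, was 13.7, 15.9, 14.5 and 14.6 CPM in the SVZ and 6.83, 6.24, 5.36 and 6.09 CPM in the CA (log2 fold change 1.26 ± 0.12 (SE), adjusted p = 0.00256).

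Of 24 proliferation genes, 0 were called in either direction by edgeR (15 higher and 1 lower at an unadjusted p below 0.05, and 2 higher and 0 lower by DESeq2), and the median log2 fold change was 0.92. Leaving out SVZ Sal 1, 4 were called higher, against 2.55% of all genes. At the unadjusted p limit the shares of all genes were 18.4% higher and 12.1% lower. Mki67, which dividing cells express, was 3.33, 30.1, 12.7 and 28.4 CPM in SVZ Sal 1 to 4 and 15.6, 8.98, 20.0 and 11.6 CPM in CA Sal 1 to 4. Top2a, a topoisomerase of dividing cells, was 0.75, 22.7, 6.32 and 18.3 CPM in the SVZ and 4.01, 3.43, 3.73 and 2.84 CPM in the CA. SVZ Sal 2 and 4 were above the CA for both genes and SVZ Sal 1 was below it (adjusted p = 0.668 and 0.171).

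Motile cilium genes of the ependyma had their highest sum in SVZ Sal 4. The 54 members present in the files summed to 326, 494, 689.6 and 2200 CPM in SVZ Sal 1 to 4 and to 472, 582, 284 and 225 CPM in CA Sal 1 to 4. Of 46 tested, 0 were called in either direction by edgeR (14 higher and 1 lower at an unadjusted p below 0.05, and 0 higher and 1 lower by DESeq2), and the median log2 fold change was 1.75, or 0.90 without SVZ Sal 4. The shares of all genes at that p limit were 18.4% higher and 12.1% lower. Tmem212, Dnah11 and Rsph1, components of ciliated cells, had log2 fold changes of 2.46 ± 1.18, 1.95 ± 0.87 and 1.15 ± 0.69 (SE; adjusted p = 0.196, 0.171 and 0.288). For Dnah11, an axonemal dynein, the values were 13, 19.8, 31.9 and 95.8 CPM in the SVZ and 12.6, 23.7, 2.17 and 3.01 CPM in the CA, so CA Sal 2 was above SVZ Sal 1 and 2. Of 16 choroid plexus genes, 0 were called in either direction by edgeR (0 higher and 0 lower at an unadjusted p below 0.05, and 0 higher and 0 lower by DESeq2), and the median of -1.38 moved to 2.30 without CA Sal 2. Ttr, Folr1, Kl and Kcne2 had log2 fold changes of -2.04 ± 2.17, -0.19 ± 1.32, -1.99 ± 1.75 and -1.61 ± 0.80 (SE), and each was highest in CA Sal 2.

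Several genes outside the lists were among the greatest differences on the SVZ side. Nexn (nexilin), an actin-binding protein, was 40.7, 38.1, 28.2 and 44 CPM in SVZ Sal 1 to 4 and 1.19, 2.59, 2.05 and 1.87 CPM in CA Sal 1 to 4, and had the lowest adjusted p of all genes tested (log2 fold change 4.30 ± 0.26 (SE), adjusted p = 0.00131). Casq2 (calsequestrin), a calcium-storing protein, was 21.8, 6.03, 7.23 and 10.7 CPM in the SVZ and 0.903, 0.837, 0.542 and 0.244 CPM in the CA (log2 fold change 4.14 ± 0.54 (SE), adjusted p = 0.00541). Spp1 (osteopontin) was 6.84 ± 3.28 CPM in the SVZ against 0.396 ± 0.227 CPM in the CA (SD, n = 4; log2 fold change 4.05 ± 0.48 (SE), adjusted p = 0.00472). The GTPase regulator Tbc1d10c was 1.12, 7.82, 13.8 and 8.66 CPM in the SVZ with 4 reads over the 4 CA libraries (log2 fold change 6.71 ± 0.97 (SE), adjusted p = 0.00726). SVZ Sal 1 was the highest SVZ library for Casq2 and Spp1 and the lowest for Tbc1d10c. Of genes chosen after their values were seen, the clock genes Dbp and Cry1 had log2 fold changes of 1.39 ± 0.18 and 1.12 ± 0.17 (SE; adjusted p = 0.00541 and 0.00907). The trophic factor Gdnf, also chosen so, averaged 1.83 ± 0.497 CPM in the SVZ against 0.161 ± 0.0655 CPM in the CA (SD, n = 4; log2 fold change 3.41 ± 0.38 (SE), adjusted p = 0.00405), and the Wnt receptor Fzd5, chosen likewise, averaged 7.27 ± 1.89 CPM in the SVZ against 1.64 ± 0.291 CPM in the CA (SD, n = 4; log2 fold change 2.15 ± 0.25 (SE), adjusted p = 0.00406). P2rx6, a purinergic ion channel, was 22.5, 9.66, 14.6 and 44.1 CPM in the SVZ and 10.3, 9.9, 5.6 and 4.14 CPM in the CA, and missed the threshold with overlap (log2 fold change 1.59 ± 0.50 (SE), adjusted p = 0.0738).

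In the lists of glia, vessels and blood, 0 members were called in either direction by edgeR. The same rule called only 1.43% of all genes tested, so 0 calls among 110 members are not read as a lack of difference. At an unadjusted p below 0.05, 15 of their 110 members were higher and 8 lower, and DESeq2 called 0 higher and 2 lower. For all genes, the shares past this p limit were 18.4% on the higher side and 12.1% on the lower side. Of 23 astrocyte genes the median log2 fold change was 0.17, and Aqp4, Slc1a2 and Aldh1l1 had values of 0.11 ± 0.17, -0.26 ± 0.18 and 0.34 ± 0.17 (SE). The median was 0.05 for 17 microglial genes, with Cx3cr1, P2ry12 and Tmem119 at -0.35 ± 0.13, -0.21 ± 0.16 and -0.27 ± 0.29. It was -0.16 for 14 endothelial genes, with Flt1 at -0.47 ± 0.14. It was 0.41 for 17 mural and meningeal genes (Pdgfrb, Acta2 and Col1a1 at 0.05 ± 0.16, 0.41 ± 0.39 and 0.39 ± 0.44), and 0.29 for 5 blood genes (Hbb and Hba-a1 at 0.39 ± 0.26 and 0.30 ± 0.25). The endothelial marker Cldn5 had no read in any of the 8 libraries. Oligodendrocyte precursors had a median of 0.26 over 9 genes, with Pdgfra and Cspg4 at 0.12 ± 0.13 and -0.10 ± 0.11. The 25 oligodendrocyte and myelin genes had a median of 0.90, which was 0.42 without SVZ Sal 1. Mbp, a major protein of myelin, was 9484, 1849, 4189 and 3702 CPM in SVZ Sal 1 to 4 and 3306, 2457, 1459 and 3090 CPM in CA Sal 1 to 4. Mog and Myrf, of the same cells, had log2 fold changes of 0.96 ± 0.45 and 0.66 ± 0.41 (SE).

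The thalamic list moved with SVZ Sal 1. Of 18 genes 0 were called in either direction by edgeR (6 higher and 0 lower at an unadjusted p below 0.05, and 6 higher and 0 lower by DESeq2) and the median was 1.72, against 0.12 and 5 called higher without that library. Tcf7l2, a transcription factor of thalamic neurons, was 259, 18.3, 14 and 44.1 CPM in SVZ Sal 1 to 4 and 12.2, 11.6, 14.1 and 10.7 CPM in CA Sal 1 to 4. Slc17a6, their vesicular glutamate transporter, was 306, 13, 2.44 and 33.8 CPM in the SVZ and 7.11, 11, 19 and 21.9 CPM in the CA. SVZ Sal 1 was highest for both genes and SVZ Sal 4 was next. Of the 18 genes, 4 (Prkcd among them) had every SVZ value above every CA value, against 11.7% of all genes. The 5 called higher without SVZ Sal 1 stand against 2.55% of all genes.

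**Figure D4:**
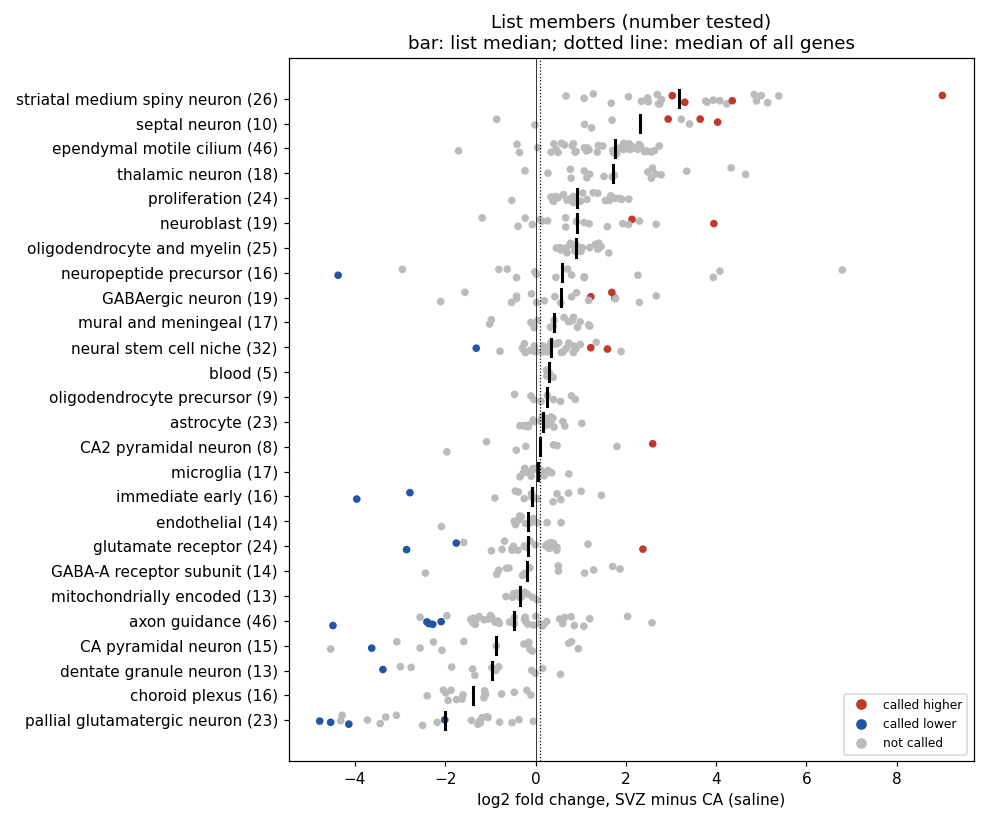
Log2 fold change (SVZ minus CA) of the tested members of each of 26 gene lists, ordered by list median (black bar), with red for called higher, blue for called lower and grey for not called; the dotted line is the median of all genes, 0.10. Medium spiny neuron genes lie furthest right (3.17) and pallial glutamatergic genes furthest left (-2.01).

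Of 46 axon guidance genes, 6 were called lower in the SVZ and 0 higher (5 at an unadjusted p below 0.05 and 1 by DESeq2), and the list's median log2 fold change was -0.47. Leaving out SVZ Sal 1, 13 were called lower and 1 higher. Robo3, a divergent receptor of the Slit receptor family, was 21.6, 2.44, 10.1 and 24.9 CPM in CA Sal 1 to 4 and 0.656, 0.895, 0.526 and 0.516 CPM in SVZ Sal 1 to 4, with CA Sal 2 the lowest CA library (log2 fold change -4.49 ± 0.70 (SE), adjusted p = 0.00907). The netrin receptor Unc5a averaged 165 ± 39.4 CPM in the CA against 31.2 ± 14.1 CPM in the SVZ (SD, n = 4; adjusted p = 0.00859), and Unc5d averaged 78.4 ± 28 CPM in the CA against 18.4 ± 2.95 CPM in the SVZ (SD, n = 4; adjusted p = 0.00541). The semaphorin receptor components Plxna1 and Nrp1 had log2 fold changes of -1.34 ± 0.14 and -2.36 ± 0.37 (SE; adjusted p = 0.00358 and 0.00914), and the netrin-like Ntng2 of -2.28 ± 0.26 (SE; adjusted p = 0.00405). Unc5a and Nrp1 were chosen after their values were seen.

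Of 24 glutamate receptor genes, 2 were called lower and 1 higher. Grin2a, an NMDA receptor subunit, was 546, 268, 403 and 379.6 CPM in CA Sal 1 to 4 and 126, 151, 112 and 83.8 CPM in SVZ Sal 1 to 4 (log2 fold change -1.76 ± 0.25 (SE), adjusted p = 0.00709). The presynaptic receptor Grm2 averaged 50.8 ± 16.8 CPM in the CA against 7.01 ± 2.94 CPM in the SVZ (SD, n = 4; log2 fold change -2.86 ± 0.41 (SE), adjusted p = 0.00711). Grm4, a receptor of the same family, was higher in the SVZ, at 91.3, 57.2, 60.1 and 68.4 CPM against 8.58, 14.7, 10.6 and 19.6 CPM (log2 fold change 2.38 ± 0.28 (SE), adjusted p = 0.00428). Of 14 GABA-A receptor subunits, 0 were called in either direction by edgeR (4 higher and 3 lower at an unadjusted p below 0.05, and 2 higher and 1 lower by DESeq2). When SVZ Sal 1 was left out, 2 were called higher and 1 lower. Of 16 neuropeptide precursors, 1 (Adcyap1) was called lower and 0 higher (4 at an unadjusted p below 0.05 and 2 by DESeq2), with a median of 0.58. When SVZ Sal 1 was left out, 3 were called higher and 3 lower, and the median was 0.37 (0.37 without SVZ Sal 2).

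Of 16 immediate early genes, which neurons induce upon activity, 2 were called lower in the SVZ and 0 higher (0 at an unadjusted p below 0.05 and 0 by DESeq2), with a median of -0.08. The sign of that median turned to 0.18 without SVZ Sal 1 and to 0.30 without CA Sal 4. Nr4a2, an orphan nuclear receptor (chr3:43111240-43119159, Rnor_6.0), was 33.8, 78.9, 58.2 and 107 CPM in CA Sal 1 to 4 and 6, 5.75, 3.16 and 2.87 CPM in SVZ Sal 1 to 4 (log2 fold change -3.96 ± 0.42 (SE), adjusted p = 0.0035). Its relative Nr4a3 was 113, 61.4, 90.4 and 67.7 CPM in the CA and 6.56, 19.7, 9 and 13 CPM in the SVZ (log2 fold change -2.78 ± 0.36 (SE), adjusted p = 0.00541). The regions did not overlap for either gene. The 13 mitochondrially encoded genes had a median of -0.34 with 0 called in either direction by edgeR (0 higher and 0 lower at an unadjusted p below 0.05, and 0 higher and 0 lower by DESeq2).

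The same regional comparison was made in the METH rats (4 samples per region, none shared with the saline comparison). The names of all SVZ METH libraries carry the prefix of the SVZ Sal libraries, and no CA METH library does. What that prefix marks and the region thus cannot be told apart here either. Each animal had received 4 METH injections of 10 mg/kg on the schedule of the saline rats. Of 15053 genes tested, 74 were called higher (0.492%) and 154 lower (1.02%) in the SVZ METH than in the CA METH samples, together 228 (1.51%). Of the 217 genes called in saline rats, 215 were tested, 215 had the same direction and 83 were called in both, which is 38.2% of the saline calls and 36.4% of the METH calls. The share of all genes with the same direction was not computed. The absolute log2 fold change was larger in saline than in METH rats for 182 of these 215 genes, and these genes had been chosen by their saline values. A region by treatment interaction passed an FDR of 0.01 for 0 of 15853 genes in edgeR's quasi-likelihood test (611 at an unadjusted p below 0.05, 3.85%), while DESeq2 and edgeR's likelihood ratio test gave 1 gene each.

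The METH libraries of the SVZ also varied in composition. Their names carry 2 library numbers, each present in a plain and an additional library, and the labels do not say whether libraries with 1 number share a source. Medium spiny neuron genes summed to 4901, 1291, 7406 and 2533 CPM in SVZ METH 1 to 4 and thalamic neuron genes to 666, 5848, 1740 and 4141 CPM, against 765, 766, 822 and 835 CPM of thalamic genes in CA METH 1 to 4. SVZ METH 2 and 4, the additional libraries, had the lowest striatal and highest thalamic sums of the SVZ METH libraries. SVZ METH 3 was also above every CA METH library for thalamic genes. The striatal sums of the CA METH libraries were 1330 to 2375 CPM, so SVZ METH 4 was above them and SVZ METH 2 was not. Whether the kind of library bears on these sums was not tested. Klk8, Zic1, Zic4 and Slc9a4 were called in both treatments, with METH log2 fold changes of -7.60, 3.87, 3.72 and -4.78. Isl1, Neurod1 and Slc30a3 were not called in METH rats, at 5.05 ± 1.12, -2.88 ± 0.96 and -3.38 ± 0.63 (SE; adjusted p = 0.0214, 0.0669 and 0.0133). Drd1 averaged 66.6 ± 48.7 CPM in the SVZ METH and 13.6 ± 5.52 CPM in the CA METH samples (SD, n = 4).

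**Figure D5:**
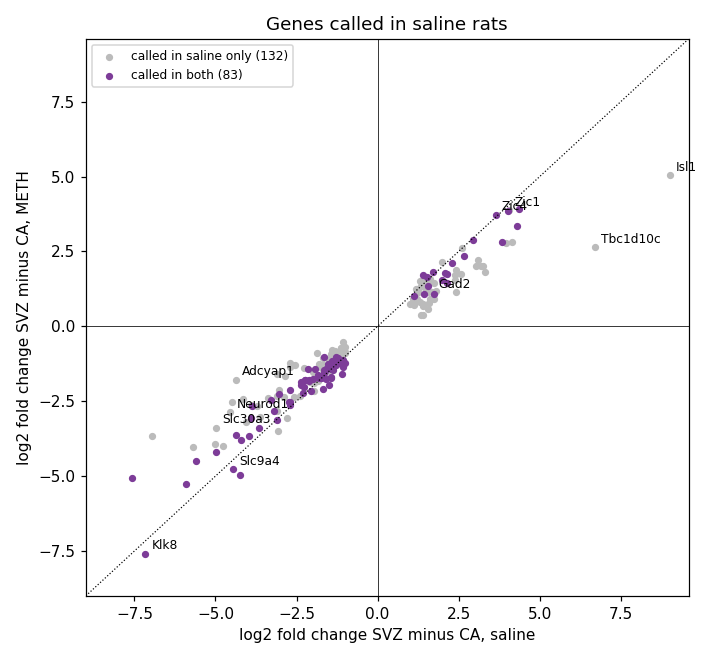
Log2 fold change (SVZ minus CA) in METH rats against that in saline rats for the 215 genes called in saline rats and tested in both; purple genes were called in both treatments (83) and the dotted line marks equality. All points lie in the quadrants of equal sign, and Isl1 and Tbc1d10c lie furthest below the line on the SVZ side.

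The saline NAc and DG samples placed these differences beside the other regions. Levels in this paragraph were scaled over all 16 saline samples and are means ± SD of 4 samples. Of the 67 genes called higher in the SVZ, 60 had every NAc value above every CA value, against 12.4% of all genes, and 8 had every DG value above every CA value, against 2.15%. These genes had been chosen for low values in the same CA samples, which favours such counts. In the SVZ Scn4b averaged 479.9 ± 289 CPM, beside 572 ± 629.6 CPM for NAc tissue. Gad2 averaged 829 ± 133 CPM, beside 912 ± 192 CPM. For Zic1 the SVZ mean was 98.9 ± 55 CPM and the NAc mean 22.6 ± 14.4 CPM. Sp8 averaged 11.1 ± 5.57 CPM, beside 1.12 ± 0.929 CPM, and Tnc 47.9 ± 9.73 CPM, beside 20.2 ± 4.52 CPM. Pbx3 averaged 45.6 ± 11.8 CPM, beside 69.7 ± 20.9 CPM, and Dcx 53.4 ± 33.1 CPM, beside 48.1 ± 21.8 CPM, so the genes of the niche differed in which of the regions had the higher mean. Of the 150 genes called lower, 44 had every DG value above every SVZ value, against 2.42% of all genes, and 4 had every NAc value above every SVZ value, against 2.76%. These genes had been chosen for low values in the same SVZ samples, so nothing is read from the comparison with all genes. The DG samples varied widely: Isl1 was 4.82 ± 9.63 CPM and Neurod1 27.6 ± 28.8 CPM there, so the SD exceeded the mean for both genes. None of these differences between the SVZ and the NAc or DG was tested.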

How the data were processed

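RNA was measured in 32 samples, of which 8 entered the main comparison. Per the labels and the study's methods, the authors prepared libraries from rRNA-depleted RNA, trimmed reads with cutadapt 2.7, checked them with FastQC 0.11.4 and aligned them to rn6 (Rnor_6.0) with STAR 2.5.2b. Per the file headers, the reads were assigned to Ensembl release 95 genes with featureCounts 1.6.3, without regard to strand and at a mapping quality of at least 10; the methods name a UCSC annotation instead, and the headers were followed here. The deposited per-sample files hold these raw counts per gene. Because strand was ignored, overlapping and antisense genes cannot be told apart, and paralogs may share or lose reads. A deposited count matrix of the whole series was used as an alternative.

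Counts were tested with edgeR 4.0.16 (R 4.3.3, limma 3.58.1): upper-quartile library sizes, filterByExpr, the quasi-likelihood test with region as the sole term, and Benjamini-Hochberg adjustment over all genes tested. Genes were called at FDR below 0.01 with a fold change above 2. CPM values use the same library sizes; standard errors (SE) were derived from each fold change and its F statistic. The test was checked on simulated counts for the same 8 samples, where 199 of 200 genes changed 4-fold were recovered. All simulated libraries had the same spread and none stood apart as SVZ Sal 1 did, so the share recovered does not apply to these data. DESeq2 1.42.0 was an alternative, with the others given in the closing section. Tables and figures used Python 3.11.15, pandas 2.3.3, NumPy 2.4.6, SciPy 1.17.1 and matplotlib 3.10.9.

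Genes were named by rule: the 12 largest called differences in each direction with non-overlapping values and at least 5 CPM in the higher region, the defining members of each list and up to 3 further called members, and Tac1, Neurod1, Rtn4rl2 and P2rx6, which the study used as regional examples. Others are marked where they appear, and some members are not reported here. The samples compared, the named genes and the 26 lists were chosen with earlier results of these data known. Intervals for ratios of few reads are exact at 95% and, like the floor of 3 reads, cover counting error only.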

Additional observations from a re-analysis of the deposited data

Results flagged for a closer look

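Each set of 4 values of a reported gene or list in 1 region was examined for a sample whose gap to the nearest of the others, relative to the whole range, passed Dixon's 95% limit. Of 264 sets, 23 held such a sample. For independent sets of normally distributed values chance alone gives about 1 in 20, or 13.2. The rule was applied to CPM without a log scale and to list sums beside their own members. The 2 numbers are therefore not compared.

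SVZ Sal 1 was the sample in 8 sets. Its summed thalamic level was 6723 CPM, with Prkcd at 931 CPM, Tcf7l2 at 259 CPM and Slc17a6 at 306 CPM, each far above the other SVZ libraries. Rarb at 14 CPM, Slc32a1 at 134 CPM, Pbx3 at 28 CPM and the astrocyte gene Aldh1l1 at 31.1 CPM also lay apart, the first 3 of these below the other SVZ libraries.

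CA Sal 2 was the sample in 6 sets. Its summed choroid plexus level was 2693 CPM, with Ttr at 1859 CPM, Kl at 152 CPM, Folr1 at 18.3 CPM and Kcne2 at 15.4 CPM, each above the other CA libraries. Adora2a, the adenosine receptor of striatal neurons, was at 17.4 CPM in the same library.

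The others were spread over 6 libraries. They were Tmem212 at 29.7 CPM and Hes1 at 5.16 CPM in SVZ Sal 4, Grm2 at 2.63 CPM in SVZ Sal 3, Chrna7 at 15.9 CPM in SVZ Sal 2, Neurod6 at 234 CPM and the summed neuropeptide precursors at 228 CPM in CA Sal 1, C1ql3 at 162 CPM and Id4 at 33.9 CPM in CA Sal 3, and the summed immediate early genes at 1239 CPM in CA Sal 4.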

How the results depend on the processing

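All 66 called named genes kept their direction under every alternative run. Their values do not overlap between the regions, so a change of sign was unlikely in advance and nothing is read from it. The number of genes called in the saline comparison was 217. The count was 251 with TMM (64 higher, 187 lower), 238 with no filter on low counts (60 higher, 178 lower), 217 with the stricter filter, 210 in the series count matrix and 283 at a fold change above 1.5. It was 894 with DESeq2, 764 with the likelihood ratio test, 710 and 712 with 1 and 2 RUVr factors, 730 at FDR below 0.05, 126 with all 16 saline samples in the fit, 76 with RNA integrity as a covariate and 3 with glmTreat. Leaving out 1 library gave 2 to 773 called genes. Of the 66 named calls, 66 remained with DESeq2, 25 with RNA integrity and 26 with all 16 samples. Whether RNA integrity differed between the regions is not reported here. Only 3 remained with glmTreat and 0 with the replicate number as a block. Without SVZ Sal 1 all 66 remained, without SVZ Sal 2 34 did, and without any 1 other library 2 to 19 did. Among list members, 34 were called (37 with TMM, 104 with DESeq2, 1 to 88 with 1 library left out). In METH rats 228 genes were called, 1212 with DESeq2, 1059 with the likelihood ratio test, 1078 with SVZ libraries of the same number summed (an alternative chosen after seeing the data) and 0 to 854 with 1 library left out. The interaction gave 0 genes, and 1 with DESeq2 or the likelihood ratio test. The cause of these differences was not tested.

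Replicate numbers are shared by the regions, but deviations of same-numbered samples correlated at 0.061, -0.032, 0.045 and -0.164, so they were not treated as pairs. With the replicate block 0 genes were called in saline and 1 in METH rats (edgeR, FDR below 0.01), where the block leaves fewer residual degrees of freedom. The prefix of the library names could not be fitted as a covariate because no prefix is shared by both regions.

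Of 125 named genes, 10 changed sign somewhere, none of them called. On the log2 scale these were Pdgfrb with TMM (-0.013) and DESeq2 (-0.017), Dcx with 1 and 2 RUVr factors (-0.030 and -0.033), Folr1 with 2 RUVr factors (0.58), Pou3f1 with RNA integrity (0.064), and, with the replicate block, Ttr (3.55), Folr1 (2.35), Kl (2.06) and Dcx (-0.10). With 1 library left out the log2 fold change ran from -0.39 to 0.16 for Amigo2 (other sign without CA Sal 1 or SVZ Sal 1), -3.44 to 4.28 for Ttr (other sign without CA Sal 2), -0.62 to 3.27 for Folr1 (other sign without CA Sal 2 or SVZ Sal 2), -3.11 to 3.77 for Kl (other sign without CA Sal 2), -0.28 to 0.086 for Egfr (other sign without CA Sal 3 or SVZ Sal 1). It ran from -0.64 to 0.22 for Pou3f1 (other sign without CA Sal 4 or SVZ Sal 1), -0.047 to 0.15 for Pdgfrb (other sign without CA Sal 4 or SVZ Sal 4), -1.01 to 0.21 for Wfs1 (other sign without SVZ Sal 1 or SVZ Sal 4), -0.25 to 0.42 for Dcx (other sign without SVZ Sal 2 or SVZ Sal 4) and -0.11 to 0.65 for Col1a1 (other sign without SVZ Sal 2). Over 11 alternatives, list medians changed sign for CA2 genes in 6 (-0.39 to 0.32), microglial genes in 5 (-0.035 to 0.10), immediate early genes in 2 (-0.21 to 0.30) and choroid plexus genes in 1 (-1.90 to 2.30), and for no other list. Genes with a few reads in 1 region have fold changes limited by depth, and 3 reads were worth 0.141 to 0.244 CPM.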

Other observations

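The gene lists gave a different order in METH rats. The 15 choroid plexus genes tested there had the highest median log2 fold change (SVZ minus CA), 3.06, with a summed level of 34.8, 157, 9396 and 40.3 CPM in SVZ METH 1 to 4 and 21.3, 464, 48.5 and 54.7 CPM in CA METH 1 to 4. Thalamic neuron genes followed at 2.39, with 1 of 18 called higher, and myelin genes at 2.02. Medium spiny neuron genes had a median of 1.83 with 1 of 26 called higher, and pallial glutamatergic genes -1.79 with 2 of 23 called lower. The 16 immediate early genes had a median of -1.40, with 1 called lower. The median of all genes tested in METH rats was 0.08, and no difference between the treatments in any of these lists was tested.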
